A study of Gallus gallus with 14 samples.

Results

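The genes described here are the well-expressed genes of the chicken Z chromosome in retina, 258 of the 18631 genes listed. They were chosen by their measured level, among the genes that the table places on the same chromosome as PDE6B, and each had at least 10 CPM (reads of a gene scaled to the library total) in each of the 14 libraries. PDE6B, RBP4, NFIL3 and ALDH1A1 lie on Z too and were left out by name. With these 4 put back 261 genes met the minimum, and 879 Z genes were listed in all. MCCC2, AGGF1 and XPA were just inside it, with lowest values of 10.01, 10.05 and 10.1 CPM. ISL1, GHR and ZNF131 were just outside it, with lowest values of 9.96, 9.88 and 9.88 CPM.

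The retinas came from wild-type White Leghorn chicks. For the 7 lens libraries (46, 47, 48, 51, 53, 54 and 55) a -10 D lens was fitted at 3 days of age and worn for 6 days. The 7 control libraries (57, 58, 59, 62, 63, 64 and 65) carry the same strain and genotype labels. Each library was made from total RNA of retina after ribosomal RNA depletion, and the labels give neither the sex of a chick nor whether each library came from a different chick.

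In birds the male has a pair of Z chromosomes and the female has 1 Z and 1 W. Birds have no chromosome-wide silencing of a Z like that of the X in female mammals, and dosage compensation of Z genes is known to be partial and to differ from gene to gene. HINTW is a multicopy gene of the chicken W that is transcribed widely in females. A lens of negative power moves the image to behind the retina, and the eye of a chick responds by growing longer.

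HINTW split the libraries without overlap. It was at 0.345 CPM in lens 48, 0.598 CPM in lens 55 and 0.0929 CPM in control 65, and at 117 to 147 CPM (median 134) in the other 11 libraries. Libraries without HINTW thus made up 2 of 7 lens and 1 of 7 control libraries. Each library held 32.3 to 42.6 M reads, as the step between low values gives it, with 10.8 to 14.1 M of them in genes. All 10 of 10 retina markers were listed at 1 CPM or more, with a summed level of 1580 to 2409 CPM in lens and 1826 to 2257 CPM in control libraries. The summed level of 8 pigment epithelium markers, 2 of them at 1 CPM or more on average, was 3.48 to 17.5 CPM in lens and 4.85 to 10.3 CPM in control libraries. That of 5 vessel and choroid markers, 1 of them at 1 CPM or more on average, was 13.2 to 23.0 CPM in lens and 15.7 to 24.3 CPM in control libraries. That of 5 markers of the eye lens, again 1 at that level, was 2.97 to 4.35 CPM in lens-treated and 3.40 to 4.29 CPM in control libraries.

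Most of the 258 genes stood higher in the 3 libraries without HINTW. The dosage ratio used below is the mean CPM of those 3 libraries divided by the mean CPM of the other 11. Its median over the 258 genes was 1.34, with quartiles of 1.17 and 1.56 and a range of 0.599 to 2.13. Over 4842 genes of the same minimum level on other chromosomes, W excepted, the median ratio was 0.988 with quartiles of 0.955 and 1.02. The split of libraries came from earlier results of these data, so the ratios are a description and carry no test.

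The ratios spread over a wide band instead of gathering at 1 value. Under 1 lay 14 genes, from 1 to 1.2 lay 59, from 1.2 to 1.5 lay 100, from 1.5 to 1.8 lay 74, and at 1.8 or more lay 11. A ratio of at least 1.2 was found for 185 of the 258 genes (71.7%) and for 0.599% of the genes on other chromosomes. In 182 genes (70.5%) the 3 libraries without HINTW all lay above the other 11, against 0.0207% of the genes on other chromosomes. The share was 3.59% of the 5103 genes of any chromosome at this level, the 258 among them. In 3 genes (1.16%) the 3 libraries all lay below the other 11, against 0.558% on other chromosomes and 0.588% of the 5103 genes. In 73 genes the libraries overlapped. In bulk tissue a ratio cannot tell more RNA per cell from more cells of a type. The vessel and choroid markers summed to 13.2, 14.9 and 19.5 CPM without HINTW and to 15.4 to 24.3 CPM with it. Only 1 of these markers reached 1 CPM on average, and their part in the ratios was not tested.

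**Figure D1:**
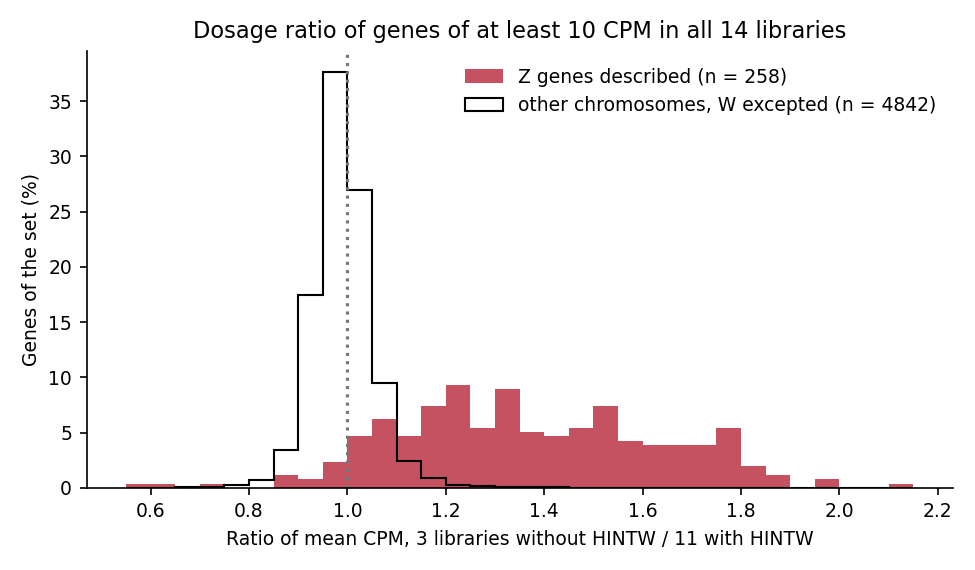
Share of genes (y axis, percent of each set) by dosage ratio (x axis, mean CPM of the 3 libraries without HINTW over mean CPM of the 11 with it). The 258 Z genes (filled) spread from 0.599 to 2.13 around a median of 1.34, and the 4842 genes of other chromosomes (outline) gather around 0.988.

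The shift was of like size in each of the 3 libraries. The median over the 258 genes of a library's value divided by the mean of the 11 libraries with HINTW was 1.34 in lens 48, 1.35 in lens 55 and 1.37 in control 65, or 1.35 ± 0.0134 (SD, n = 3). Among the 11 libraries it ran from 0.968 to 1.03. Over the genes of other chromosomes it was 0.967 to 1.00 in the 3 libraries. The 258 genes held 4.65% to 4.76% of the gene total without HINTW and 3.52% to 3.71% with it.

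Over the set of genes, lens and control libraries taken alone gave like ratios. The median was 1.36 among lens libraries (2 without HINTW, 5 with) and 1.36 among control libraries (1 without, 6 with). Across the 258 genes the lens and control ratios, which share no library, had a Spearman rho of 0.90. Single genes could differ between them. Between pairs of the 3 libraries rho was 0.83 to 0.89, over points that share the 11 libraries below the line.

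The 6 genes with the highest ratios code for proteins of unrelated kinds. CETN3 (Z, 59940527 to 59957150), a centrin of centrioles, had 31.1, 26.6 and 32.0 CPM in lens 48, lens 55 and control 65, against a lowest, median and highest value of 10.3, 14.7 and 16.8 CPM in the libraries with HINTW, a ratio of 2.13. XPA (70929125 to 70942309), which recognises damaged DNA in nucleotide excision repair, had 21.9, 23.4 and 21.4 CPM without HINTW, against 10.1, 11.4 and 12.1 CPM with it, a ratio of 1.98. ATP5A1Z (2151344 to 2159327), the Z copy of a catalytic-core subunit of the mitochondrial ATP synthase, had 63.7, 57.1 and 58.1 CPM without HINTW, against 27.3, 29.8 and 36.8 CPM with it, a ratio of 1.96. In all 3 genes every library without HINTW stood well above the highest of the others. WDR70, a WD-repeat protein, had a ratio of 1.89, CHRNA6, a subunit of neuronal nicotinic acetylcholine receptors, 1.88, and RPS6, a protein of the small ribosomal subunit, 1.85.

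TLE4Z1, a corepressor of the Groucho family, CDC42SE2, an effector of the small GTPase CDC42, and HOOK3, which links cargo to dynein, lay nearest the median with ratios of 1.34 each.

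At the other end, 3 genes stood lower in all 3 libraries without HINTW than in any of the 11. SELENOP1 (13587891 to 13596606), the plasma carrier of selenium, had 63.8, 50.7 and 65.4 CPM in lens 48, lens 55 and control 65, against a lowest, median and highest value of 82.6, 100 and 119 CPM in the libraries with HINTW, a ratio of 0.599. SLC1A1 (27065545 to 27125162), a neuronal glutamate transporter, had 18.5, 17.4 and 17.2 CPM without HINTW, against 27.1, 28.8 and 33.1 CPM with it, a ratio of 0.605. JAK2 (27532802 to 27618275), the tyrosine kinase of many cytokine receptors, had 47.9, 41.2 and 41.7 CPM without HINTW, against 52.5, 58.7 and 64.1 CPM with it, a ratio of 0.745. The gap was wide for SELENOP1 and SLC1A1 and small for JAK2. The next lowest ratios, those of SLC1A3 (0.850), the glutamate transporter of Müller glia, CTSV (0.887), a lysosomal protease, and TMED7 (0.887), a cargo receptor of the early secretory pathway, went with overlapping libraries.

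The ratio tended to be lower for genes of higher level. In 3 equal sets by mean CPM its median was 1.42 in the low, 1.39 in the middle and 1.26 in the high set, with a Spearman rho of -0.21 over the 258 genes. In 3 equal sets by the length of the gene on the chromosome it was 1.44, 1.33 and 1.33 from short to long, with a rho of -0.08. Level and length are themselves related in these genes (rho 0.25), and all ratios come from the same libraries. The 289 other Z genes with a mean of at least 1 CPM that missed the minimum had a median ratio of 1.46. The minimum of 10 CPM in every library takes out genes whose level is low in the 11 libraries, so the 258 genes do not stand for all Z genes.

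Along the chromosome the ratio was patchy from gene to gene. The median absolute log2 difference between the ratios of neighbouring genes was 0.27, and between all pairs of the 258 genes it was 0.27 as well. Over 10 Mb of Start, the median ratio was 1.37 from 0 to 10 Mb, 1.37 from 10 to 20 Mb, 1.17 from 20 to 30 Mb, 1.35 from 30 to 40 Mb and 1.5 from 40 to 50 Mb. It was 1.38 from 50 to 60 Mb, 1.34 from 60 to 70 Mb, 1.37 from 70 to 80 Mb and 1.53 from 80 to 90 Mb, the last over 5 genes. The stretch from 20 to 30 Mb stood out as the lowest. It held 45 genes, of which 22 were above, 2 below and 6 had a ratio under 1. In bins of 5 Mb the lowest median was 1.03, over the 16 genes from 25 to 30 Mb.

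**Figure D2:**
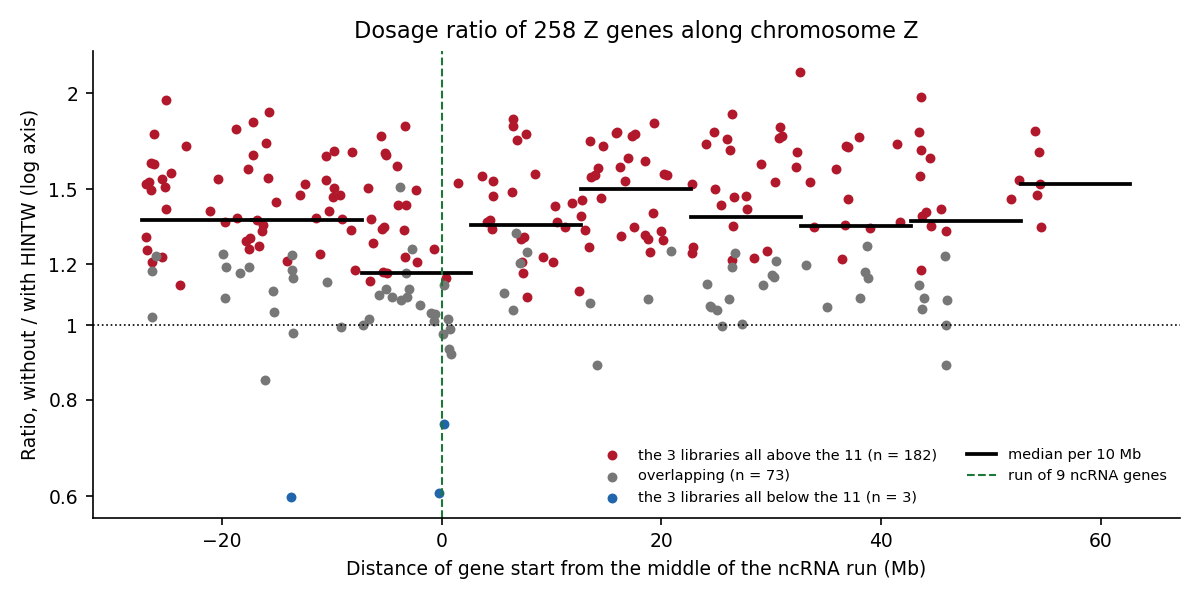
Dosage ratio of each of the 258 genes (points, log axis) by the distance of the gene's start from the middle of a run of non-coding RNA genes (x axis, Mb), with the median of each 10 Mb of Start (black bars). Red points are genes whose 3 libraries without HINTW all lay above the other 11, blue points the 3 genes where they all lay below, and grey points the rest. The bar across the run, at 1.17, is the lowest, and the blue points at 0.605 and 0.745 lie beside it, as do grey points.

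The low stretch held a run of 9 listed non-coding RNA genes that were nearly silent in the libraries without HINTW. The chicken Z is known to carry a region, named MHM for male hypermethylated, from which females make non-coding RNA and males do not. The table gives the run no such name. It was found after the values were seen. All Z genes averaging at least 1 CPM with HINTW, and under 5% of that level without it, were taken. Being neighbours was not asked of them, and whether other listed genes lie between them was not checked. All 9 fell in this stretch. The run has no gene among the 258. It spanned 219.6 kb, from 27178701 to 27398263. LOC100859072, with the highest CPM of the 9, had 0.319, 0.0971 and 0.0310 CPM in lens 48, lens 55 and control 65, against a lowest, median and highest value of 71.0, 77.7 and 83.1 CPM in the libraries with HINTW. LOC112530612 was at the listed floor in all 3 libraries and averaged 13.7 CPM in the other 11.

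Genes near the run had ratios close to 1. Within 2 Mb of it lay 15 of the 258 genes, with a median ratio of 1.02, 3 above, 2 below and 6 with a ratio under 1. The other 243 had a median of 1.36, with 179 above and 8 under 1. SLC1A1 ends 53.5 kb before the run and JAK2 starts 134.5 kb after it. CDC37L1, the nearest of the 15, starts 46.3 kb after the run and had a ratio of 0.974 with overlapping libraries. RCL1 starts 82.9 kb after it, nearer than JAK2, and had a ratio of 1.13, again with overlapping libraries. Before the run also lay MAP1B (1.06), a microtubule-associated protein of neurons, SMARCA2 (1.04), an ATPase of chromatin remodelling complexes, VLDLR (1.01), a lipoprotein and reelin receptor, RFX3 (1.03), a transcription factor of ciliated cells, and KCNV2 (1.25), a silent potassium channel subunit of photoreceptors. KCNV2 was the only one of these 5 whose libraries did not overlap. Of the genes on the far side, PTPRD, a receptor tyrosine phosphatase of neurons, had the highest ratio, 1.53.

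DMRT1, the Z gene of testis determination, is known to lie in this part of the chromosome and was not analysed here. Around the midpoint between its neighbours KANK1 and SMARCA2, 24 of the genes lay within 2 Mb and had a median ratio of 1.10, against 1.37 for the other 234. Of these, FCHO2, which acts in clathrin-mediated endocytosis, had a ratio of 1.5 and TNPO1, a nuclear import receptor, 1.21. Within 1 Mb the median was 1.05 over 8 genes and within 4 Mb it was 1.17 over 37.

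Some Z genes have kept a partner on the W, and their median ratio lay above that of all 258 genes. The list of such partners held 30 symbols, some of them alternative names of the same gene, and 16 of the 258 genes matched it by name. Their median ratio was 1.64, against 1.34 for all 258, and in 15 of the 16 the libraries without HINTW all lay above the others. CZH18ORF25, with a ratio of 1.51 and also above, was not matched to the listed symbol C18orf25 and is not counted. SUB1, a transcriptional coactivator, had a ratio of 1.30, HNRNPK, an RNA-binding protein, 1.45 and CHD1Z, a chromatin remodeller, 1.72.

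For 7 of the 258 genes the table also lists a W gene of related name, so that the level of both copies could be added. The median ratio of the Z gene alone was 1.72 and that of the sum was 0.891. Both medians include HINT1Z, whose W gene of related name is HINTW, the gene that defined the split. CHD1Z averaged 105 CPM ± 7.73 (SD, n = 3) without HINTW and 61.4 CPM ± 5.68 (SD, n = 11) with it, where its W partner CHDB1 added 66.4 CPM ± 9.25 (SD, n = 11), and the ratio of the sums was 0.826 with overlapping libraries. HNRNPK averaged 122 CPM ± 1.39 (SD, n = 3) without HINTW, and with it HNRNPK and HNRNPKL together averaged 124 CPM ± 5.16 (SD, n = 11). ZFR, a zinc finger RNA-binding protein, and ZFRL1 also overlapped, with a ratio of sums of 0.891. For HNRNPK the mean sum without HINTW lay within the range of the 11 sums with it, 115 to 131 CPM. For CHD1Z it was 106 CPM, at the lowest of the 11 sums (105 to 148 CPM), and for ZFR it was 64.6 CPM, below the lowest of the 11 (66.6 to 86.0 CPM).

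The other 4 pairs went both ways. With the W copy added, libraries without HINTW still lay above the others for ATP5A1Z with ATP5A1W (ratio of sums 1.23) and for SPIN1Z with SPIN1W (1.21), a reader of histone methylation. They lay below for MIER3 with MIER3L (0.761), a chromatin-associated factor, and for HINT1Z with HINTW (0.221). HINT1Z, a histidine triad nucleotide-binding protein, had a ratio of 1.77 on its own. Reads may be shared between a Z gene and its near-identical W copy, and how they were counted is not given in the sources used here. For this reason the split between copies is uncertain.

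**Figure D3:**
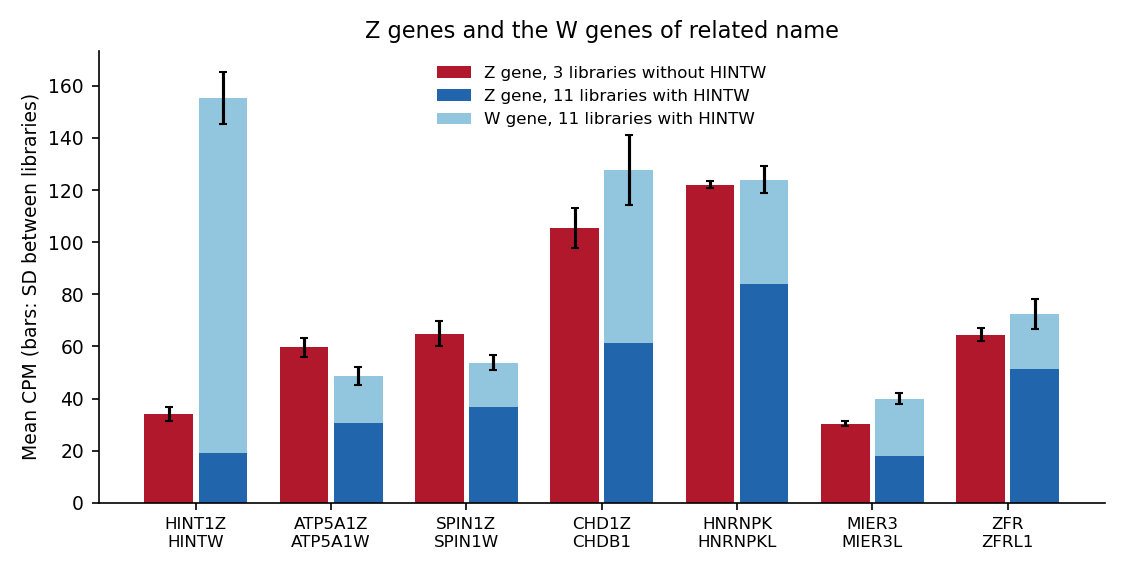
Mean CPM (y axis) of 7 Z genes without HINTW (red, SD over 3 libraries) and, with HINTW, of the Z gene (dark blue) stacked with the W gene of related name (light blue, SD of the sum over 11 libraries). The stacked bar is close to the red bar for HNRNPK, lower for ATP5A1Z and SPIN1Z, and far higher for HINT1Z.

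The other gene lists had median ratios of 1.13 to 1.34. Among 22 genes of synapse and neuronal signalling the median ratio was 1.21, with 13 above and 1 below (SLC1A1). Among them, PTPRD was at 1.53, SLC1A3 at 0.850 and MAP1B at 1.06. Among 11 genes of growth signals, guidance and matrix it was 1.13, with 3 above and 1 below (JAK2). Here EGFLAM, the photoreceptor synapse protein pikachurin, had 1.11, PIK3R1, a regulatory subunit of PI3-kinase, 1.10, and EDIL3, an integrin ligand, 1.06.

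The remaining lists lay nearer the median of all 258 genes. Among 10 transcription factors of retina and brain the median was 1.29, with 6 above, and ZNF608, a zinc finger protein, was at 1.54. Among 12 genes of mitochondria and metabolism it was 1.32, with 7 above. OXCT1, an enzyme of ketone use, was at 1.21, and HMGCS1, an enzyme of cholesterol synthesis, was at 1.18. Among 13 genes of protein synthesis and turnover it was 1.34, with 10 above, and CLTA, a clathrin light chain, was at 1.78, with 1.95 among lens and 1.37 among control libraries. No test was made between lists, and the lists share some genes.

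Next, lens and control retinas were compared with HINTW status as a covariate. With it, the lens changed a small share of the Z genes. Most of the calls were downwards in the deposited scaling, among these genes as among all genes tested. In the other 3 scalings the calls among these genes were near even between directions. Over all genes tested more were then higher than lower. Lower levels in lens retinas were found for the kinase NIM1KZ, the RNA granule protein TDRD7 and the complexins CPLX4 and CPLX1. Complexins clamp and promote vesicle release. The vesicle-recycling proteins SH3GL2 and GAK were lower too. Higher levels were found for the scaffold IQGAP2, the Golgi ceramidase ACER2, the mitochondrial hydratase AUH and UNC13B, a priming factor of synaptic vesicles.

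In limma on log2(CPM + 1), at a Benjamini-Hochberg adjusted p under 0.05 over all 11132 genes tested, 22 of the 258 genes passed. Of these 5 were higher and 17 lower in lens retinas. That is 8.53% of the 258 genes, beside 3.73% of all genes tested (1.15% higher and 2.58% lower) and 6.13% of the 4842 genes of other chromosomes at the same minimum level. At an unadjusted p under 0.05 there were 52 of the 258, beside 1167 of those 4842 genes and 1974 of all 11132 genes tested. At that threshold the share of the 258 lay below that of the 4842 genes of other chromosomes.

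The split between directions moved with scaling. Of the calls among the 258 genes, 22.7% were higher in the deposited scaling, 50% with median-of-ratios factors (10 higher and 10 lower), 47.4% with an equal sum over autosomal genes and 47.6% after quantile normalization. In these 3 scalings 7.75%, 7.36% and 8.14% of the 258 genes passed, beside 3.09%, 3.06% and 3.3% of all genes tested. Of the genes of other chromosomes at the same minimum level 5.1%, 5.1% and 5.39% passed. Without control 65, the only control library without HINTW, 14 genes passed, 3 higher and 11 lower, beside 2.07% of all genes tested and 3.55% of the genes of other chromosomes at the same minimum level. Lower calls numbered 11 also without lens 46, lens 47, control 58 or control 64. KLF9, PCSK1, AKAP2 and CMYA5 passed in the deposited scaling and in none of the other 3.

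IQGAP2 (23461532 to 23577609), which binds actin and calmodulin, had the largest rise. Lens libraries with HINTW (46, 47, 51, 53 and 54) had 51.3, 58.3, 52.9, 61.99 and 58.1 CPM, and the 6 control libraries with HINTW had a lowest, median and highest value of 37.8, 44.1 and 50.5 CPM. Without HINTW it had 84.6 and 79.1 CPM in lens 48 and lens 55, against 60.5 CPM in control 65. Lens values lay above control values within each HINTW status, with a log2 fold change of 0.38 ± 0.061 (SE, limma adjusted p = 0.00120).

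ACER2 (33744069 to 33764642) rose by 0.29 ± 0.060 on the log2 scale (SE, limma adjusted p = 0.00906). It had 87.1 and 74.6 CPM in lens 48 and lens 55, against 59.9 CPM in control 65, and 39.9, 44.9 and 48.1 CPM (lowest, median and highest) in lens libraries with HINTW, against 32.2, 37.8 and 40.9 CPM in control libraries with HINTW. The last 2 ranges overlapped. AUH (44207761 to 44329046), an enzyme of leucine breakdown, had 28.0, 29.1 and 31.4 CPM in lens libraries with HINTW, against 23.9, 25.7 and 26.8 CPM in control libraries with HINTW, with no overlap. It rose by 0.21 ± 0.044 (SE, limma adjusted p = 0.0109). UNC13B, a priming factor of synaptic vesicles, rose by 0.19 (limma adjusted p = 0.0157) and PTAR1, of the prenyltransferase alpha subunit family, by 0.18 (limma adjusted p = 0.0413). PTAR1 had 97.3 and 103 CPM in lens 48 and lens 55, against 98.2 CPM in control 65, so lens 48 lay below that control. Without control 65 the limma adjusted p was 0.0520 for ACER2 and 0.0792 for UNC13B, and with each library left out in turn PTAR1 passed in 6 of 14 fits.

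NIM1KZ (13642221 to 13655187), a serine/threonine kinase related to AMPK, had the largest fall. Lens libraries with HINTW had 32.3, 35.98, 31.5, 33.0 and 29.6 CPM, and control libraries with HINTW had a lowest, median and highest value of 44.9, 46.97 and 52.98 CPM. Without HINTW it had 46.5 and 42.0 CPM in lens 48 and lens 55, against 63.6 CPM in control 65. The groups did not overlap within either HINTW status, and over all 14 libraries lens 48 overlapped the controls. The log2 fold change was -0.55 ± 0.052 (SE, limma adjusted p = 1.16e-05). NIM1KZ overlaps HMGCS1 on the opposite strand, and the strand setting of the counting is not given in the sources used here. HMGCS1 itself did not pass, at a log2 fold change of 0.09 (limma adjusted p = 0.580).

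CPLX4 (927301 to 942878), the complexin of photoreceptor and bipolar ribbon synapses, fell by 0.40 on the log2 scale (SE 0.056, limma adjusted p = 2.75e-04). Lens libraries with HINTW had 62.9, 68.6, 63.2, 71.6 and 77.0 CPM, against a lowest, median and highest value of 83.2, 93.6 and 101 CPM in control libraries with HINTW. Lens 48 and lens 55 had 83.3 and 70.7 CPM, against 96.8 CPM in control 65. Only lens 48 reached the lowest control value. The dosage ratio of CPLX4 was 1.12 among lens libraries and 1.05 among control libraries. CPLX4 overlaps LMAN1 on the same strand, which did not pass (log2 fold change -0.10, limma adjusted p = 0.175).

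CPLX1 (52349941 to 52454031), a complexin of conventional synapses, had 34.7, 35.4 and 38.8 CPM (lowest, median and highest) in lens libraries with HINTW, against 39.2, 43.1 and 46.2 CPM in control libraries with HINTW, and fell by 0.27 (limma adjusted p = 0.00300). GAK (53452577 to 53522928), which helps uncoat clathrin-coated vesicles, had 121, 129 and 141 CPM in lens libraries with HINTW, against 150, 168 and 190 CPM in control libraries with HINTW, and fell by 0.31 (limma adjusted p = 0.0115). SH3GL2 (32971955 to 33061402), endophilin A1, had 52.6, 61.0 and 73.2 CPM in lens libraries with HINTW, against 70.1, 84.4 and 88.7 CPM in control libraries with HINTW, and fell by 0.32 (limma adjusted p = 0.0171). The ranges were apart for CPLX1 and GAK and overlapped for SH3GL2. Among libraries without HINTW, GAK had 179 and 139 CPM in lens 48 and lens 55, against 172 CPM in control 65, so lens 48 lay above that control. CPLX1 had 35.6 and 40.0 CPM against 49.7 CPM, and SH3GL2 had 77.3 and 79.2 CPM against 85.3 CPM, in the same libraries.

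TDRD7 (71017085 to 71057637), an RNA granule protein, had 13.3, 14.4, 15.0, 17.2 and 15.7 CPM in lens libraries with HINTW, against a lowest, median and highest value of 18.6, 19.1 and 20.4 CPM in control libraries with HINTW, and fell by 0.35 (limma adjusted p = 0.00122). EFNA5, an axon guidance ligand, had 12.0, 13.5 and 15.6 CPM in lens libraries with HINTW, against 13.98, 16.4 and 17.9 CPM in control libraries with HINTW, and fell by 0.30 (limma adjusted p = 0.0187). MEF2C, a transcription factor of neurons and muscle, had 46.7, 56.9 and 61.9 CPM in lens libraries with HINTW, against 61.6, 67.6 and 74.4 CPM in control libraries with HINTW, and fell by 0.27 (limma adjusted p = 0.0271). Among libraries without HINTW, lens 48 and lens 55 were below control 65 for all 3 genes, with 78.9 and 64.5 CPM against 79.7 CPM for MEF2C. With HINTW, TDRD7 was apart between the groups, whereas EFNA5 and MEF2C overlapped, and MEF2C overlaps an antisense gene, LOC101752071. Without control 65 the limma adjusted p of EFNA5 was 0.0958, and with each library left out in turn MEF2C passed in 10 of 14 fits.

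**Figure D4:**
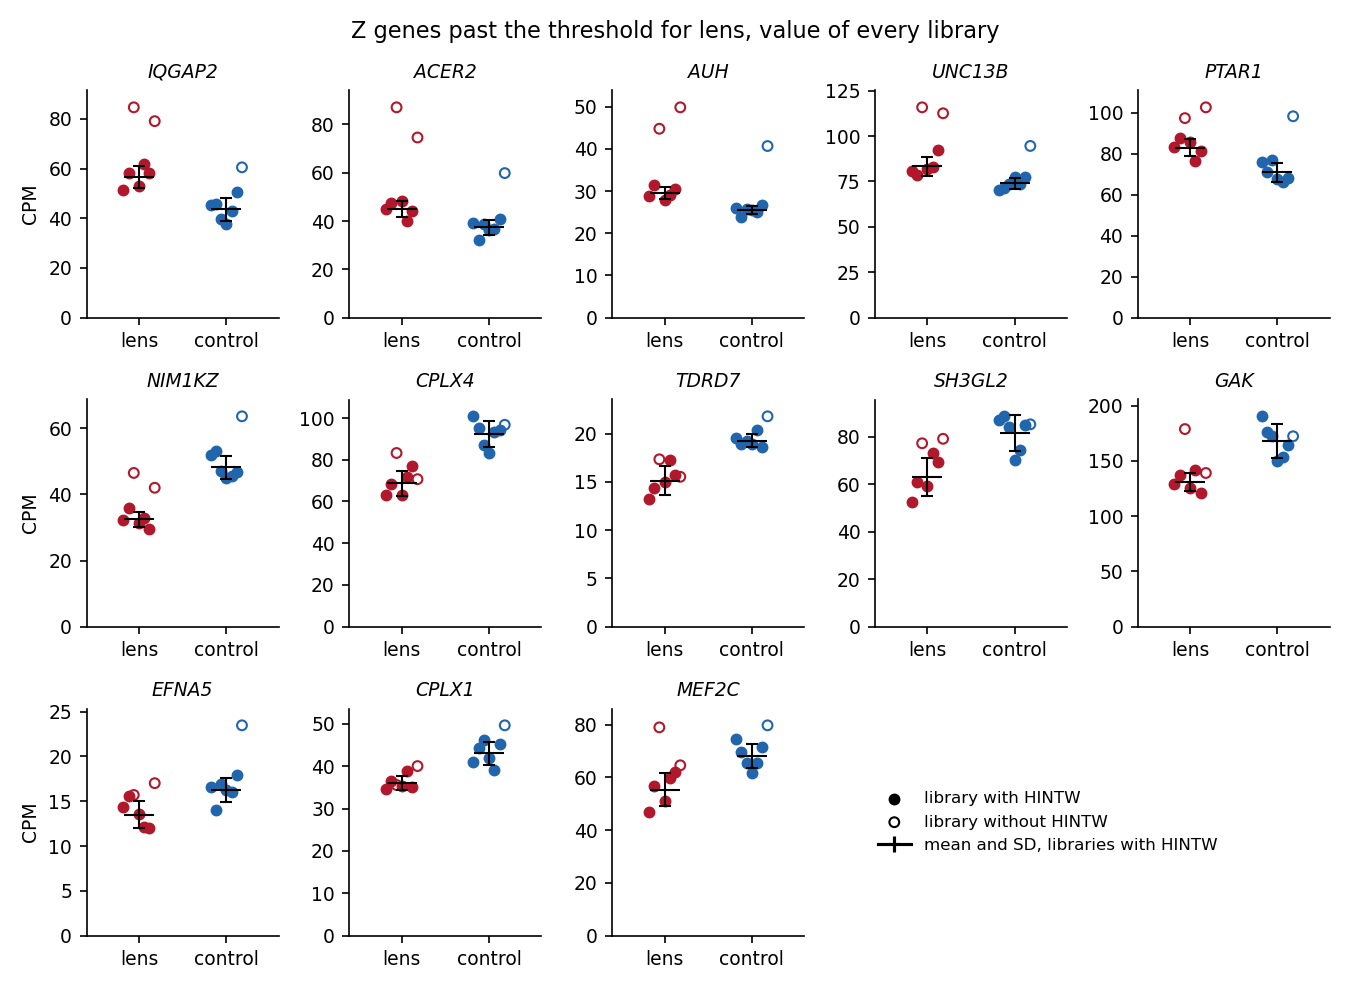
CPM (y axis) of 13 Z genes past the threshold, in lens (left) and control (right) libraries. Open circles are the 3 libraries without HINTW, filled circles the 11 with it, and bars the mean and SD of the libraries with HINTW. For IQGAP2 and ACER2 the open circles stand above the filled ones of their own group, at 60.5 and 59.9 CPM in control 65. For IQGAP2 control 65 lies below the filled circle of lens 53, at 61.99 CPM. For CPLX4 the open circles of lens 55 and control 65 lie among the filled ones.

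Within the gene lists the calls were few in number, and each list is too small to set its share against a background. Over all 258 genes 8.53% passed, beside 6.13% of the genes of other chromosomes at the same minimum level and 3.73% of all genes tested. Of 22 genes of synapse and neuronal signalling, 3 fell, none rose and 19 did not pass, with a median log2 fold change of -0.05, beside -0.04 over all genes tested. Among those that fell were CPLX4 and PCSK1, a prohormone convertase, at -0.24 (limma adjusted p = 0.0285). Of 10 transcription factors 2 fell, MEF2C and KLF9, a hormone-responsive zinc finger factor, at -0.20 (limma adjusted p = 0.0340), and the list's median was -0.07. Of 11 genes of growth signals, guidance and matrix 1 fell (EFNA5), with a median of 0.01. Of 12 genes of mitochondria and metabolism 1 rose (AUH), with a median of 0.03. None of 16 W partner genes (median -0.03) and none of 13 genes of protein synthesis and turnover (median -0.02) passed. With each library left out in turn, PCSK1 passed in 7 and KLF9 in 6 of 14 fits.

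Another 6 genes that passed were lower in lens retinas and are named here after their values were seen. They were SLC24A2, the sodium-calcium-potassium exchanger of cones (-0.23), RUSC2 (-0.25), CMYA5 (-0.25), the kinase anchor AKAP2 (-0.19), and the PDZ-domain scaffolds PDZD2 (-0.18) and MPDZ (-0.17), all log2 fold changes in limma with adjusted p of 0.0108 to 0.0485. Among the 11 libraries with HINTW, 16 of the 258 genes had lens and control ranges apart, beside 3.16% of all genes tested, whatever their level. The share among genes of other chromosomes at the same minimum level was not worked out. Of the 22 genes 12 had ranges apart, but these 22 were picked on the same values. Every 10 Mb of Start held a call except the last, from 80 to 90 Mb, with 5 genes. The calls were uneven, with the most from 30 to 40 Mb, 6 of 30 genes, beside 22 of the 258. From 20 to 30 Mb 1 gene was higher and 1 lower among 45.

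The covariate changed what the comparison called. Without it 7 of the 258 genes (2.71%) passed, 1 higher (IQGAP2) and 6 lower (NIM1KZ, CPLX4, TDRD7, CPLX1, GAK and SLC24A2). Beside them stood 2.76% of all genes tested and 4.94% of the genes of other chromosomes at the same minimum level. All 7 were among the 22. AUH, for example, had a log2 fold change of 0.30 without the covariate with a limma adjusted p of 0.273, and MPDZ had -0.07 with a limma adjusted p of 0.857. With the 3 libraries without HINTW left out, 15 of the 258 genes passed, 4 higher and 11 lower, beside 2.37% of all genes tested and 4.07% of the genes of other chromosomes at the same minimum level. UNC13B and EFNA5 were among those that did not pass.

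With the covariate the lens log2 fold change was lower for 244 of the 258 genes and higher for 14, among them SLC1A1 and JAK2. The median log2 fold change of the 258 genes was -0.02 with it and 0.03 without it, beside -0.04 in both fits over the other chromosomes. Under median-of-ratios factors, an equal sum or quantile normalization the median with the covariate was 0.01 to 0.02, so its sign depended on scaling. Without the covariate the median was 0.08 over the 85 genes with a dosage ratio of at least 1.5, 0.04 over the 100 genes from 1.2 to 1.5 and -0.01 over the 73 genes under 1.2. With the covariate it was -0.03, -0.02 and -0.02 in the same order. Ratio and fold change come from the same libraries, 2 of the 3 without HINTW being lens libraries, so the first order follows from the split.

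**Figure D5:**
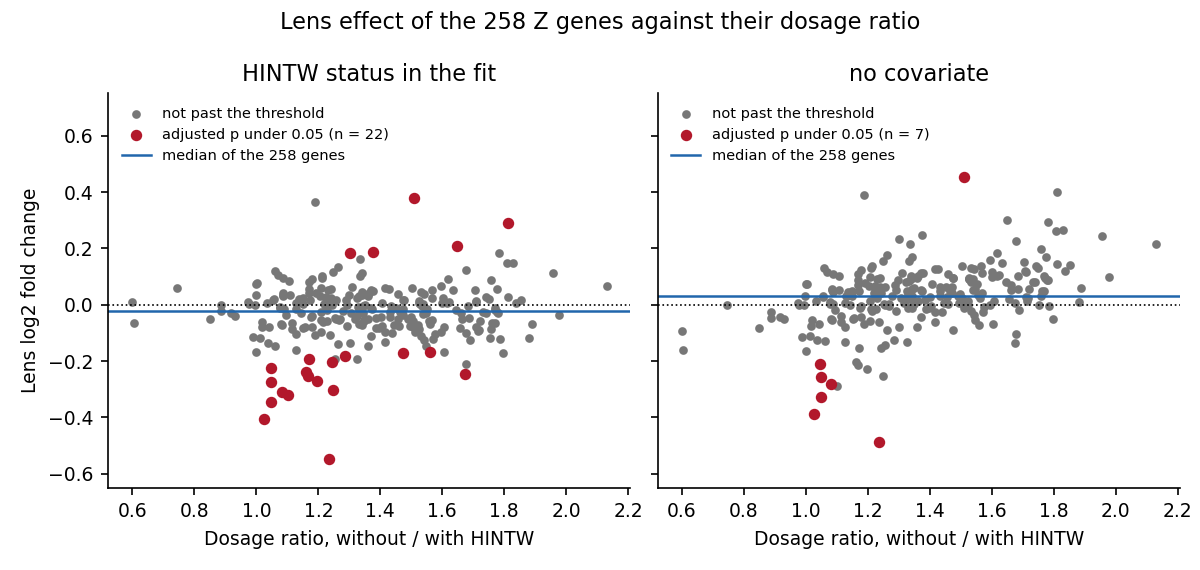
Lens log2 fold change on the log2(CPM + 1) scale (y axis) against dosage ratio (x axis) for the 258 genes, with HINTW status in the fit (left) and without it (right). Red points passed the threshold, 22 on the left and 7 on the right, and the blue line is the median, at -0.02 and 0.03. On the right the cloud tilts upwards with the ratio, and on the left it does not.

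Whether the lens effect differed between libraries with and without HINTW was asked with a product term. In limma no gene of the 258 passed at an adjusted p under 0.05, and 6 had an unadjusted p under 0.05. None of all genes tested passed, and 405 had an unadjusted p under 0.05. The term rests on a single control library without HINTW, so a difference between them could have gone undetected.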

How the data were processed

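Per the labels' protocols, total RNA of retina was depleted of ribosomal RNA and made into stranded libraries. Per the submitters' processing notes, STAR and Partek were used, and the build was GRCg6a. How reads were counted, and with which strand setting, is not given in the sources used here. Normalized values in CPM were deposited by the authors for 18631 genes and 14 libraries, with 0.0001 added to every entry. In each library 93.7% to 95.3% of low values were whole reads within 0.02 of a read. No count model was used, because the values were taken as normalized. Start and stop are as deposited.

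The genes described and the gene lists were chosen with earlier results of these data known. So were the rules for naming genes. For the dosage ratio these took the 6 highest, the 6 lowest and the 3 nearest the median. For the lens effect they took at most 8 genes past the threshold in each direction, ACER2, AUH, CPLX1, CPLX4, EFNA5, GAK, IQGAP2, MEF2C, NIM1KZ, PTAR1, SH3GL2, TDRD7 and UNC13B. In each list they took the 3 of highest CPM and those past the threshold, and near DMRT1 the 8 nearest genes. Some genes that these rules took are not reported here, and counts cover all of them.

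A library counted as without HINTW under 1 CPM of that gene. The log2(CPM + 1) values of the 11132 genes that reached 1 CPM in 7 or more of the 14 libraries were fitted in limma (version 3.58.1, R version 4.3.3) on lens and HINTW status with an intensity trend. Adjusted p-values are Benjamini-Hochberg values over these genes, with 0.05 as the threshold. The fit was tested on simulated data. Fold changes on this scale understate those of low genes. Whether each library is a different chick is not stated in the labels, so p-values measure the spread between these samples.

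Of the 258 symbols, 252 matched the RefSeq gene table of GRCg7b, 251 of them on Z and 1 (NEDD4L) on W, and 39 genes overlap another listed gene of 1 CPM or more. None of 5 blood markers was matched in the table. Groups share no replicate number. Alternatives covered the covariate, pseudocount, filter, scaling, prior, weights, threshold, the letter of the title, the minimum level, bins and each library left out. The anchors of the region, the run of non-coding RNA genes and the sums of Z and W genes were added after seeing the data. Python version 3.11.15 and matplotlib version 3.10.9 drew the figures.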

Additional observations from a re-analysis of the deposited data

Results flagged for a closer look

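CETN3, the gene with the highest dosage ratio, was low in 1 lens library. It had 10.98 CPM in lens 46, against 14.7 to 16.2 CPM in the other 4 lens libraries with HINTW, a gap of 0.722 of the range of the 5. Control 59 and control 62 were lower still, at 10.3 and 10.7 CPM, so the value lies within the range of the 11 libraries with HINTW. This was the only such gap in 74 groups over 37 genes. How often chance gives such a gap was not tested. Leaving out 1 library at a time, the ratio of CETN3 ran from 2.06 to 2.25.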

How the results depend on the processing

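No paired analysis was possible because lens and control libraries share no replicate number. No called gene changed sign under any alternative run, though the median log2 fold change of the 258 genes did. Without the covariate 1 gene was higher, 6 were lower and 7 passed in all, with a median log2 fold change of 0.0325. Leaving out the libraries without HINTW gave 11 lower. Higher and lower calls and the median log2 fold change were 10, 10 and 0.0141 with median-of-ratios factors, 9, 10 and 0.0103 with an equal sum, and 10, 11 and 0.0170 after quantile normalization. These scalings moved the median of all genes tested by under 0.1. Leaving out 1 library at a time gave 14 to 22 passing genes, 3 to 6 higher and 11 to 17 lower, a median of -0.0334 to -0.0140, a median ratio of 1.34 to 1.35, and 182 to 189 genes above and 3 to 5 below. CPLX1, CPLX4, GAK, IQGAP2, NIM1KZ, SLC24A2 and TDRD7 passed in all 12 settings of the fit and in all 14 fits without a library. AKAP2 and MPDZ passed in 3 and CMYA5 in 4 of those 14 fits. The median dosage ratio was 1.36 among control libraries (1 without HINTW, 6 with) and 1.36 among lens libraries (2 without, 5 with). With median-of-ratios factors it was 1.36 too. It was 1.39 at a minimum of 5 CPM and 1.31 at 20 CPM, where 108 genes lay above. The lowest bin of 5 Mb was at 1.03. Around the neighbours of DMRT1 the median ratio was 1.05 within 1 Mb and 1.17 within 4 Mb, and within 2 Mb of the run of non-coding RNA genes it was 1.02. For single genes, 353 values under these settings kept their side of the threshold or stayed within the spread, 51 no longer passed and 4 moved. Depth limits none of these genes much, but 3 libraries without HINTW limit every ratio, and the table cannot split reads shared by Z and W copies.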

Other observations

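Before the 4 genes left out by name are set aside, 261 Z genes met the minimum, of which 25 passed for the lens effect, 6 higher and 19 lower. The Z gene UBE2R2, a ubiquitin-conjugating enzyme, missed the minimum. It averaged 14.1 CPM ± 0.685 (SD, n = 3) without HINTW and 9.04 CPM ± 0.774 (SD, n = 11) with it, where the W gene UBE2R2L added 11.2 CPM ± 0.882 (SD, n = 11). The ratio of its sums was 0.697, and the libraries without HINTW all lay below the others.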
